A study of Mus musculus with 8 samples.

Results

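The genes described here are 37 members of the unfolded protein response and the integrated stress response, taken by gene name from the deposited table of 30266 mouse genes. All 37 names were found in 38 rows of that table, because Ddit3 has a second identifier that held at most 1 read in any library, and all 37 members passed the filter on low counts. The livers came from male mice of 8 weeks, and every animal in both groups carried the Mdr2-/- genotype. The group treated with rFGF21 (recombinant FGF21) received 1.0 mg/kg and the PBS group received vehicle, and liver was taken 4 h later, with 4 RNA-seq libraries in each group. There was no wild-type or undosed group. The Mdr2 gene is listed as Abcb4; it encodes the canalicular pump for phosphatidylcholine, and mice without it develop chronic cholestatic injury. Whole liver was sequenced, so fewer cells of a type and less RNA per cell cannot be told apart in any value below.

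When unfolded proteins gather in the endoplasmic reticulum (ER), the ER membrane sensors IRE1 (Ern1), ATF6 and PERK (Eif2ak3) are switched on. IRE1 splices the Xbp1 transcript so that it encodes an active transcription factor, and XBP1 and ATF6 together raise chaperones, folding enzymes and the machinery that withdraws misfolded proteins for degradation. PERK slows translation by phosphorylating eIF2alpha, which favours translation of ATF4, and ATF4 with CHOP (Ddit3) drives genes of amino acid supply, redox balance and cell death. Other kinases reach the same eIF2alpha step, for example GCN2 during amino acid shortage, which is why that arm is called integrated. In hepatocytes the secretory load is large, and ER chaperones are abundant. A gene-level read count sums the spliced and unspliced forms of Xbp1, and neither protein nor phosphorylation was analysed here.

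The libraries held 69308143 to 73313449 reads with rFGF21 and 62756328 to 71871913 reads with PBS. PBS library 4 stood apart by a mitochondrial read share of 7.96%, against 3.27% to 4.26% in the rFGF21 libraries and 4.02% to 4.55% in the other PBS libraries. In CPM, which scale each gene's reads to the size of its library, Abcb4 read 372 to 441 CPM with rFGF21 and 337 to 424 CPM with PBS; the disrupted part of the gene is not stated, and these counts therefore do not check the genotype. Albumin read 45622 to 58034 CPM with rFGF21 and 42573 to 63437 CPM with PBS, while 0 reads fell on the photoreceptor genes Rcvrn and Crx in any of the 8 libraries, although the protocol text in the labels speaks of retina.

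Of the 37 members, 3 changed. Xbp1 and Eif2ak3 rose and Derl3 fell in rFGF21 livers (quasi-likelihood test of edgeR, p adjusted by Benjamini-Hochberg over 18315 genes, threshold 0.05). These are 8.11% of the members, against 2.82% of all genes tested (516 genes); for higher calls alone the background was 1.15%, and for lower calls alone 1.67%. None of the 14 chaperones and folding enzymes passed, and none of the 12 ATF4/CHOP members passed. An unadjusted p under 0.05 was reached by 10 of the 37 members, and by 18.8% of all genes tested. The median log2 fold change was -0.01 over the members and 0.00 over all genes tested. The groups did not overlap in 4 members, Xbp1, Eif2ak3 and Dnajb9 on the higher side and Derl3 on the lower, where 12.3% of all genes tested did not overlap (5.90% on the higher and 6.39% on the lower side).

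**Figure D1:**
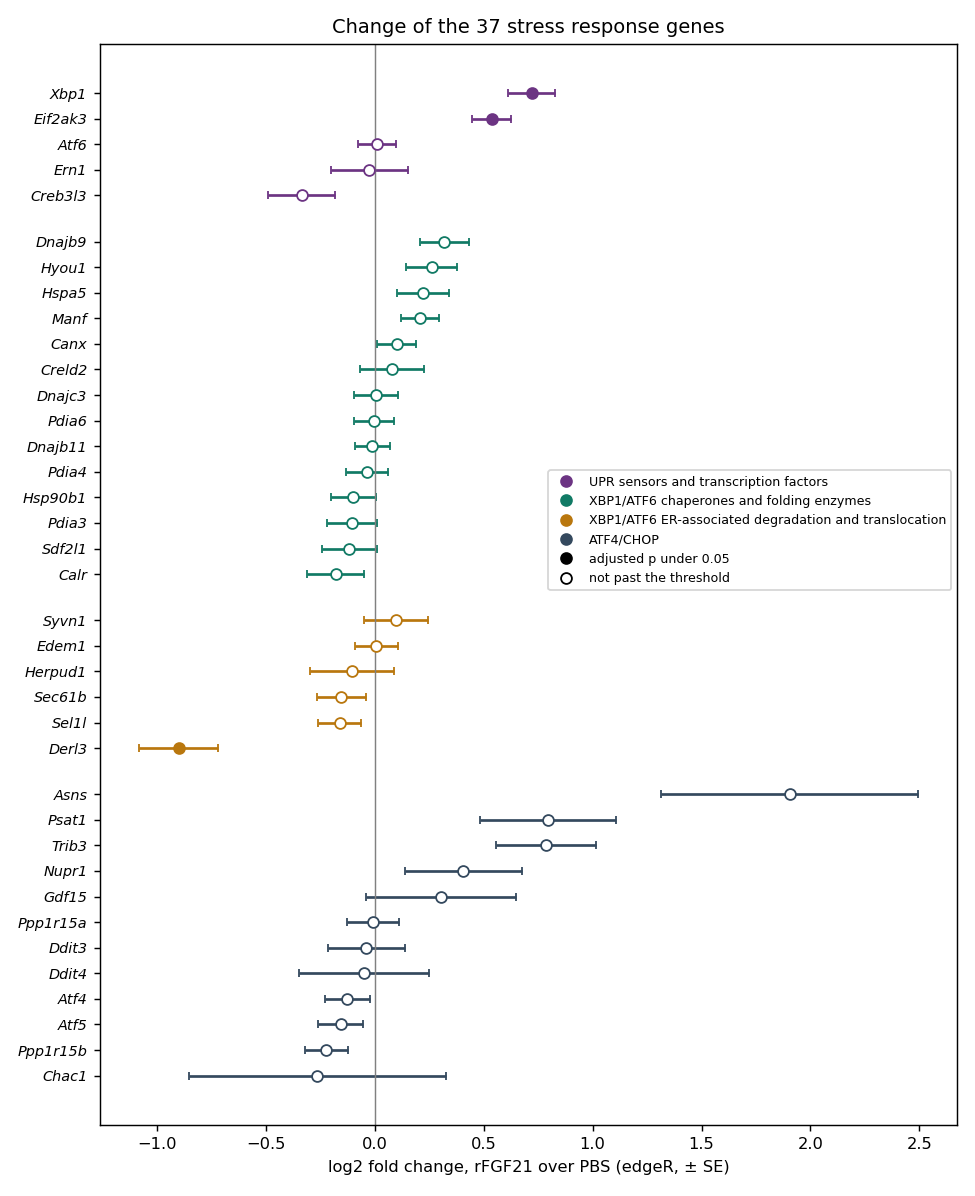
Log2 fold change of each of the 37 genes, rFGF21 over PBS (x axis, edgeR, bars ± SE, 4 libraries a group), grouped by role down the page. Filled points passed an adjusted p under 0.05: Xbp1 at 0.72, Eif2ak3 at 0.54 and Derl3 at -0.90, while chaperones lie close to 0 and Asns carries a wide error.

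Levels of different genes were compared as TMM-normalized CPM divided by the kilobases of merged exon in the annotation. On this per-length scale the members spanned from a mean of 0.517 (Psat1) to 348 (Calr) CPM per kb over the 8 libraries. The chaperones and folding enzymes lay between 14.35 (Hyou1) and 348 CPM per kb, with a median of 49.8. The sensors were rare beside them, with Ern1 at 8.902, Atf6 at 6.029 and Eif2ak3 at 4.816 CPM per kb. Creb3l3 had 105.1 ± 3.66 CPM per kb with rFGF21 and 132.6 ± 29.0 with PBS, in the range of the abundant chaperones. Xbp1 had 122.6 ± 12.4 CPM per kb with rFGF21, above Herpud1 (86.6) and Pdia4 (83.0) there, and 74.4 ± 6.37 with PBS, below Herpud1 (93.1) and Pdia4 (85.1). ATF4/CHOP members had a median of 5.25 CPM per kb, and Atf5 (54.2) and Atf4 (32.1) were the highest of the 12 on that scale. Pdia3 and Hsp90b1, neighbours in this order, did not differ beyond their spread: Pdia3 had 177.5 ± 6.58 CPM per kb with rFGF21 and 190.9 ± 28.9 with PBS, and Hsp90b1 had 175.7 ± 12.55 with rFGF21 and 188.1 ± 16.8 with PBS (SD, n = 4 each).

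**Figure D2:**
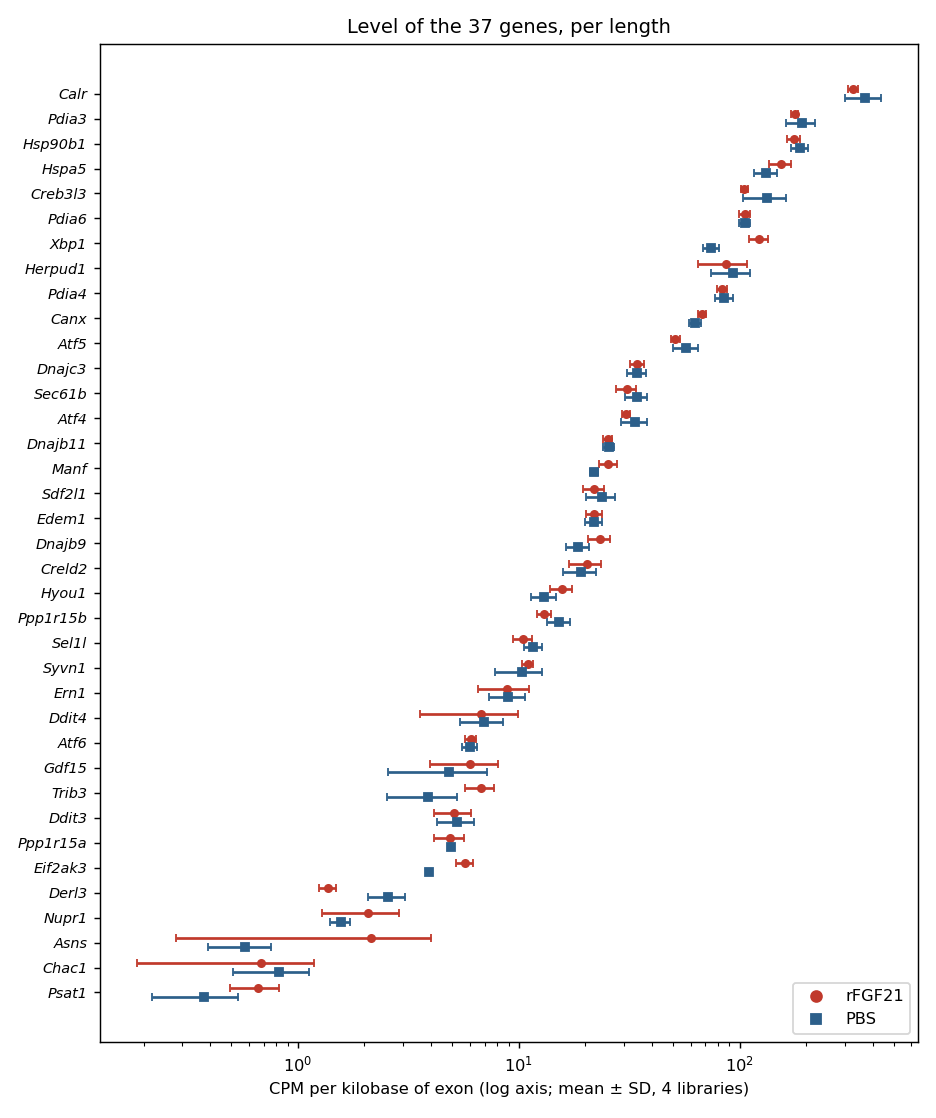
CPM per kilobase of exon for each member (log x axis) as mean ± SD of 4 libraries, with rFGF21 drawn above PBS and genes ordered by their mean over all libraries. Levels run from Psat1 at 0.517 to Calr at 348 CPM per kb; the rFGF21 points of Xbp1 and Eif2ak3 sit right of PBS and that of Derl3 sits left.

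Among the sensors and factors, Xbp1 (ENSMUSG00000020484, GRCm38 chromosome 11, 5520659 to 5525893), the transcription factor spliced by IRE1, read 455, 382, 361 and 395 CPM in rFGF21 libraries 1, 2, 3 and 5, and 234, 229.8, 273 and 230.5 CPM in PBS libraries 1, 2, 4 and 5. Every rFGF21 library lay above every PBS library, and the highest PBS value was that of library 4. Xbp1 averaged 398 ± 40.2 CPM with rFGF21 and 242 ± 20.7 CPM with PBS (SD, n = 4 each), 1.65-fold higher (log2 fold change 0.72 ± 0.11 SE, edgeR adjusted p = 0.00898). It was called in all 18 alternatives, at log2 fold changes of 0.65 to 0.89. Those alternatives called different shares of all genes tested. With edgeR the share was 2.77% under median-of-ratios scaling, 2.82% under upper-quartile scaling, 0.672% with no filter and 3.77% with a mean of at least 50 reads. It was 8.34% with DESeq2 and 2.66% with limma-voom. With limma on log2(CPM per kb + a pseudocount) it was 0.456% and 0.517% for pseudocounts of 1 and 0.1, 3.55% where genes had a mean of at least 1, and 0.279% on log2(TPM + 1). Without rFGF21 library 1, 2, 3 or 5 it was 0.701%, 1.48%, 1.51% or 0.920%, and without PBS library 1, 2, 4 or 5 it was 1.11%, 1.89%, 2.60% or 1.34%.

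Eif2ak3 (ENSMUSG00000031668, chromosome 6, 70844515 to 70905245), which encodes PERK, read 36.7, 33.9, 30.3 and 36.6 CPM in the rFGF21 libraries and 23.6, 24.5, 23.7 and 22.9 CPM in the PBS libraries. Reads of Eif2ak3 may include those of Gm23346 and Gm43292, which overlap it in the table. The groups were well apart, and the PBS values were close together. It averaged 34.4 ± 3.02 CPM with rFGF21 and 23.7 ± 0.652 CPM with PBS (SD, n = 4 each), 1.45-fold higher (log2 fold change 0.54 ± 0.09, edgeR adjusted p = 0.0138). Without rFGF21 library 1 its log2 fold change was 0.50 and its edgeR adjusted p = 0.0572, and on log2(TPM + 1) they were 0.65 and 0.0638 (limma adjusted p), under a scaling that moved the median member by 0.17.

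The other sensors did not pass. Ern1, which encodes IRE1, read 59.8, 99.5, 63.2 and 65.9 CPM with rFGF21 and 58.1, 76.3, 90.3 and 68.9 CPM with PBS, with rFGF21 library 2 far above the other 3 of its group. Its log2 fold change was -0.03 ± 0.18 (edgeR adjusted p = 0.958) and turned positive without rFGF21 library 1, 3 or 5 or PBS library 4. Atf6 read 54.0, 60.3, 55.9 and 53.3 CPM with rFGF21 and 48.8, 57.3, 59.1 and 56.6 CPM with PBS (0.01 ± 0.09, edgeR adjusted p = 0.964), a difference that turned negative without rFGF21 library 2 or PBS library 1. Creb3l3, an ER-bound factor related to ATF6 that is cut and released in hepatocytes, read 325, 321, 321 and 301 CPM with rFGF21 and 426, 441, 271 and 462 CPM with PBS. All 4 rFGF21 values lay close together, below 3 of the PBS values and above PBS library 4. Its log2 fold change was -0.335 ± 0.15 (edgeR adjusted p = 0.271), and -0.48 without PBS library 4 (edgeR adjusted p = 0.0214), so a call there depends on that library.

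For 5 pairs of members, the log2 ratio of CPM within each library is given as a description (means ± SD, n = 4 each). The pairs were chosen after the values were seen. An exact permutation test run on each ratio gave an adjusted p = 0.0857 for all 5, so none passed. With 70 splits this test could give no p below 0.0286, so 1 separated ratio alone could not pass adjustment over 5 pairs. Because the pairs were picked from these values, those tests lend no weight to a difference. The ratio of Eif2ak3 to Atf6 averaged -0.70 ± 0.18 with rFGF21 and -1.22 ± 0.12 with PBS, and the groups did not overlap. The ratio of Eif2ak3 to Ern1 was -1.04 ± 0.37 with rFGF21 and -1.61 ± 0.26 with PBS. The ratio of Xbp1 to Hspa5 was -0.70 ± 0.31 with rFGF21 and -1.20 ± 0.25 with PBS, and that of Xbp1 to Dnajb9 was 2.75 ± 0.29 with rFGF21 and 2.35 ± 0.13 with PBS. The ratio of Derl3 to Herpud1 was -6.18 ± 0.37 with rFGF21 and -5.41 ± 0.48 with PBS. In these 4 pairs the groups overlapped.

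**Figure D3:**
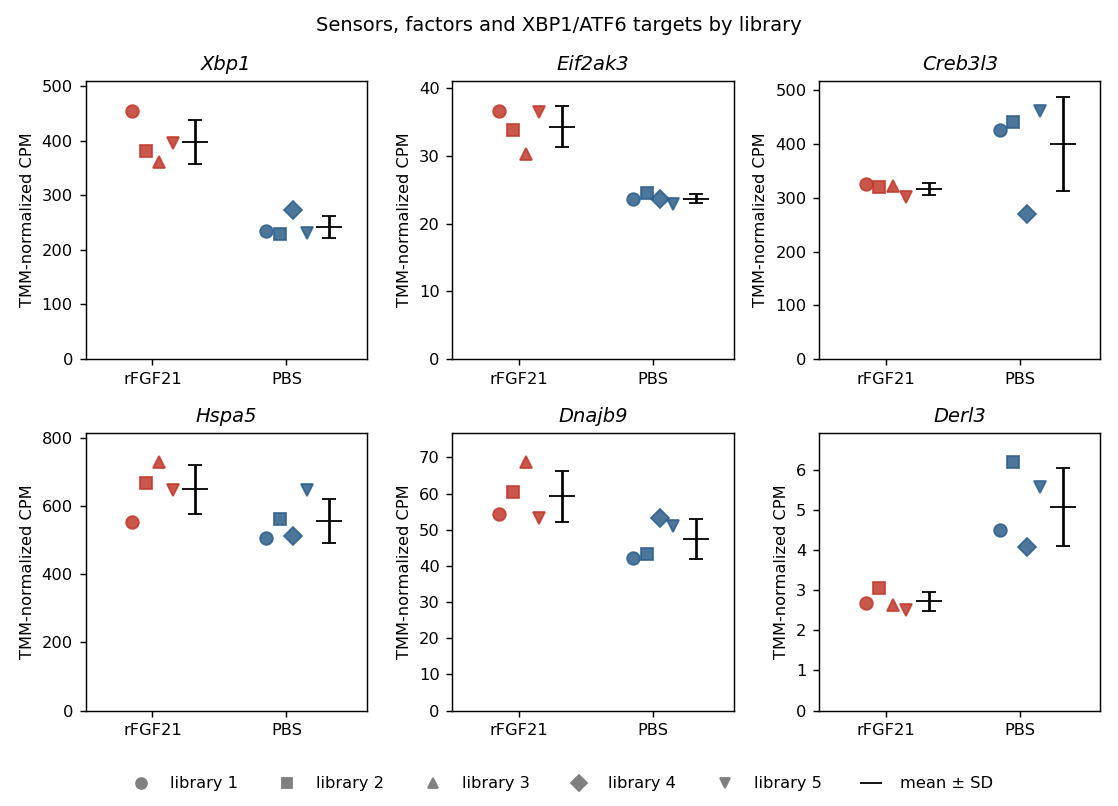
TMM-normalized CPM (y axis from 0) of 6 members in each rFGF21 library (left) and PBS library (right), symbols giving the library number and bars the mean ± SD of 4 libraries. Xbp1 and Eif2ak3 are higher and Derl3 lower in every rFGF21 library, Dnajb9 barely separates, Hspa5 overlaps, and PBS library 4 alone lies low for Creb3l3.

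The chaperones and folding enzymes, the main products of the XBP1 and ATF6 arm, lay close to their PBS level. Of 14 members, 0 passed by edgeR, by DESeq2 or by limma-voom. These tools called 2.82%, 8.34% and 2.66% of all genes tested, so a count of 0 among 14 is near those shares. An unadjusted p under 0.05 was reached by 3 (Dnajb9, Manf and Hyou1), against 18.8% of all genes tested. Log2 fold changes of the 14 ran from -0.18 (Calr) to 0.32 (Dnajb9) with a median of 0.00, and 10 were within 0.2 of 0. Standard errors were 0.08 to 0.15, so the design could resolve smaller changes here than for rarer genes.

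Hspa5, which encodes BiP, the main ER Hsp70 chaperone and the brake on all of the sensors, read 553, 668, 729 and 649 CPM with rFGF21 and 508, 561, 512 and 646 CPM with PBS. The ranges overlapped through rFGF21 library 1 and PBS libraries 2 and 5 (log2 fold change 0.22 ± 0.12, edgeR adjusted p = 0.348). Dnajb9 (ERdj4), a co-chaperone that is among the most IRE1 and XBP1 dependent genes, read 54.5, 60.4, 68.7 and 53.4 CPM with rFGF21 and 42.1, 43.3, 53.3 and 51.2 CPM with PBS. The groups did not overlap, by a margin of 53.37 CPM in rFGF21 library 5 over 53.35 CPM in PBS library 4, and the log2 fold change of 0.32 ± 0.11 did not pass (edgeR adjusted p = 0.157). It passed in 0 of the 18 alternatives, with adjusted p of 0.0638 or more.

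Hyou1, an ER chaperone that also serves as exchange factor of BiP, read 95.1, 116.4, 124 and 116.7 CPM with rFGF21 and 82.2, 85.6, 104 and 106 CPM with PBS (0.26 ± 0.12, edgeR adjusted p = 0.262). Manf, a secreted ER stress protein, read 80.3, 88.9, 101 and 88.3 CPM with rFGF21 and 76.5, 75.6, 75.8 and 82.5 CPM with PBS (0.21 ± 0.09, edgeR adjusted p = 0.233). Both overlapped between groups through rFGF21 library 1. Reads of Manf may include those of 3 genes that overlap it in the table.

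The lectin chaperones did not pass. Calr (calreticulin), the most abundant member, read 950.0, 985, 959 and 865 CPM with rFGF21 and 967, 976, 1359 and 958 CPM with PBS, where library 4 alone was high (-0.18 ± 0.13, edgeR adjusted p = 0.497). Without PBS library 4 its log2 fold change was -0.04. Canx (calnexin) read 307, 335, 320.0 and 307 CPM with rFGF21 and 298, 307, 269.7 and 309 CPM with PBS (0.10 ± 0.09, edgeR adjusted p = 0.595). The other 8 were Hsp90b1 (GRP94), the disulfide isomerases Pdia3, Pdia4 and Pdia6, the co-chaperones Dnajb11 and Dnajc3 (an inhibitor of PERK), Sdf2l1 and Creld2. All 8 overlapped between groups, with log2 fold changes of -0.12 (Sdf2l1) to 0.08 (Creld2). Over all genes tested, 12.3% did not overlap.

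Within the rFGF21 group, library 3 was the highest of the 4 in 15 of the 20 chaperone, folding and degradation members and the lowest in 0, while libraries 5 and 1 were the lowest in 11 and 9. Within PBS, library 4 was an extreme of its group, highest or lowest, in 15 of the 20. The arm's median difference from the PBS mean ran from -0.10 to 0.10 on the log2 scale over the rFGF21 libraries and from -0.12 to 0.07 over the PBS libraries.

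**Figure D4:**
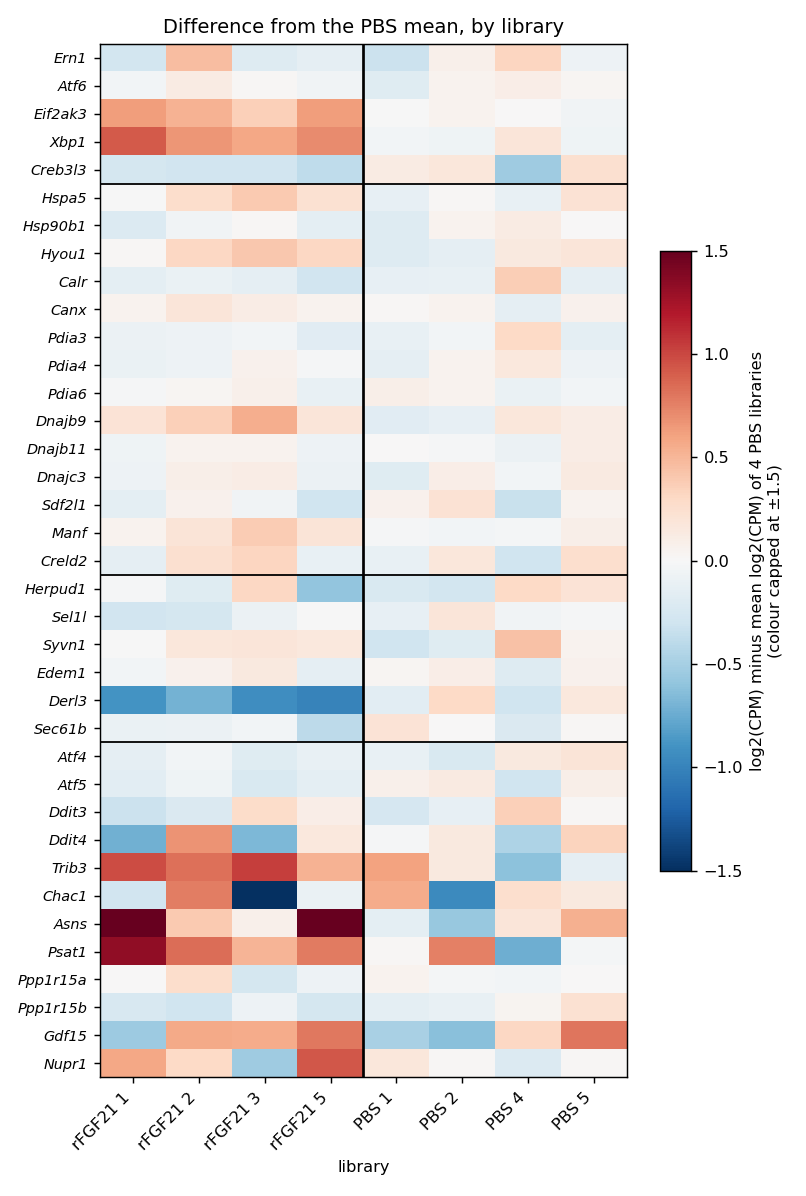
Log2(CPM) of each member in each library minus the mean of the 4 PBS libraries (colour, capped at ±1.5), rFGF21 libraries left and PBS libraries right, with lines between the groups of members. Xbp1 and Eif2ak3 are red and Derl3 blue in all 4 rFGF21 libraries, chaperones are pale throughout, and Asns is red in rFGF21 libraries 1 and 5.

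The degradation and translocation members had 1 of 6 lower and 0 higher, where 1.67% of all genes tested were lower and 1.15% higher. Derl3 (ENSMUSG00000009092, chromosome 10, 75893413 to 75895941), a Derlin of the channel that withdraws misfolded proteins from the ER and a target of XBP1, read 2.69, 3.06, 2.64 and 2.51 CPM with rFGF21 and 4.51, 6.195, 4.07 and 5.59 CPM with PBS. No value overlapped, and the rFGF21 values were the tighter set. It averaged 2.73 ± 0.236 CPM with rFGF21 and 5.09 ± 0.973 CPM with PBS (SD, n = 4 each), a fold of 0.536 (log2 fold change -0.90 ± 0.18, edgeR adjusted p = 0.0299). This is a rare transcript, with 190 to 217 reads in each rFGF21 library and 238 to 394 in each PBS library. Leaving out any 1 library other than PBS library 4 ended the call (edgeR adjusted p 0.0527 to 0.0945), at log2 fold changes of -0.79 to -0.95. It was called in 7 of the 18 alternatives.

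Derl3 is also abundant in plasma cells and other professional secretory cells. The 9 plasma cell markers measured summed to 265 to 394 CPM with rFGF21 and 260.0 to 354 CPM with PBS. That sum was made up mostly of Sdc1, which hepatocytes also express. Of the 8 tested, 0 were called by edgeR, 0 reached an unadjusted p under 0.05 and 0 were called by DESeq2. Over all genes tested these shares were 2.82%, 18.8% and 8.34%. The median SE of the 8 was 0.43, against 0.18 over all genes tested, so these counts say little about plasma cells. Igkc averaged 13.0 ± 9.43 CPM with rFGF21 and 14.2 ± 6.05 CPM with PBS, Jchain 3.64 ± 3.36 CPM with rFGF21 and 3.72 ± 1.71 CPM with PBS, and Mzb1 0.312 ± 0.349 CPM with rFGF21 and 0.670 ± 0.422 CPM with PBS (SD, n = 4 each). Their part in the Derl3 result was not tested.

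The remaining 5 of the degradation group did not pass. Herpud1, an ER membrane scaffold of this degradation, read 212, 189, 265 and 142 CPM with rFGF21 and 183, 177, 262 and 247 CPM with PBS, and had the largest standard error of the 20 (-0.10 ± 0.19, edgeR adjusted p = 0.825). Sel1l and Syvn1 encode the adaptor and the ubiquitin ligase (HRD1) of the same complex. Sel1l read 81.2, 82.7, 93.4 and 99.2 CPM with rFGF21 and 91.5, 113, 96.1 and 98.5 CPM with PBS (-0.16 ± 0.10, edgeR adjusted p = 0.42). Syvn1 read 49.0, 55.1, 55.6 and 54.6 CPM with rFGF21 and 39.8, 43.2, 66.7 and 50.8 CPM with PBS (0.10 ± 0.15, edgeR adjusted p = 0.777). In both genes the groups overlapped.

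Edem1, a lectin that hands over misfolded glycoproteins, read 137, 147, 156 and 129 CPM with rFGF21 and 143, 151, 123 and 148 CPM with PBS (0.01 ± 0.10, edgeR adjusted p = 0.981). Sec61b, a subunit of the translocon, read 40.5, 40.7, 42.2 and 33.0 CPM with rFGF21 and 49.8, 43.3, 37.3 and 43.7 CPM with PBS (-0.15 ± 0.11, edgeR adjusted p = 0.502).

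The ATF4/CHOP members had a wider range of log2 fold changes and larger errors. Their median level was 10.7 CPM, against 122.75 CPM in the chaperone, folding and degradation members. Of 12, 0 passed by edgeR or limma-voom, 1 passed by DESeq2 (Trib3), and 4 reached an unadjusted p under 0.05 (Trib3, Asns and Psat1 on the higher side, Ppp1r15b on the lower). Log2 fold changes ran from -0.26 (Chac1) to 1.91 (Asns) with a median of -0.02, and the median SE was 0.25 against 0.11 in the chaperone, folding and degradation members. In all 12 the groups overlapped, where 12.3% of all genes tested did not overlap, so this count is near that share. Over all genes tested, 18.8% reached an unadjusted p under 0.05, and DESeq2 called 8.34%, edgeR 2.82% and limma-voom 2.66%.

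The factors themselves did not pass. Atf4, the master factor of this arm, whose protein is set mainly by translation, read 71.3, 76.6, 69.2 and 72.4 CPM with rFGF21 and 72.6, 67.2, 87.0 and 89.4 CPM with PBS (-0.13 ± 0.10, edgeR adjusted p = 0.559). Ddit3, which encodes CHOP, read 7.10, 7.68, 10.7 and 9.52 CPM with rFGF21 and 7.48, 8.18, 11.4 and 8.98 CPM with PBS (-0.04 ± 0.18, edgeR adjusted p = 0.933). Atf5, a related factor that is abundant in liver, read 101, 108, 96.8 and 102 CPM with rFGF21 and 119, 124, 92.1 and 119.8 CPM with PBS (-0.16 ± 0.10, edgeR adjusted p = 0.457). In these 3 genes the groups overlapped. Reads of Ddit3 may include those of Mars1, and reads of Atf5 those of Il4i1 and Nup62, which overlap them on the opposite strand.

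Among targets of ATF4, Asns, asparagine synthetase, read 12.4, 1.99, 1.59 and 7.59 CPM in rFGF21 libraries 1, 2, 3 and 5, and 1.36, 1.02, 1.71 and 2.18 CPM in the PBS libraries. Libraries 1 and 5 were far above all others, with 929 and 574 reads, while rFGF21 libraries 2 and 3, with 141 and 116 reads, lay inside the PBS range. The mean was 5.88 ± 5.12 CPM with rFGF21 and 1.57 ± 0.496 CPM with PBS (SD, n = 4 each), and the log2 fold change of 1.91 ± 0.59 did not pass (edgeR adjusted p = 0.117). Without rFGF21 library 1 it was 1.25.

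Trib3, a pseudokinase that CHOP and ATF4 induce and that inhibits AKT, read 15.6, 13.97, 16.3 and 11.4 CPM with rFGF21 and 12.04, 8.76, 5.15 and 7.204 CPM with PBS. Only PBS library 1 reached into the rFGF21 range, above library 5. Its log2 fold change was 0.79 ± 0.23 (edgeR adjusted p = 0.0994). Without PBS library 1 it was 1.03 and called (edgeR adjusted p = 0.0478), and DESeq2 called it with all libraries (DESeq2 adjusted p = 0.0129), where DESeq2 called 8.34% of all genes tested.

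Psat1, an enzyme of serine synthesis, read 3.78, 2.68, 2.14 and 2.58 CPM with rFGF21 and 1.52, 2.53, 0.906 and 1.47 CPM with PBS (0.80 ± 0.31, edgeR adjusted p = 0.199). Nupr1, a stress-induced chromatin protein, read 5.87, 4.83, 2.71 and 7.44 CPM with rFGF21 and 4.415, 3.95, 3.39 and 3.97 CPM with PBS (0.41 ± 0.27, edgeR adjusted p = 0.448). In Nupr1, as in Asns, the 2 highest libraries of all were rFGF21 libraries 1 and 5. In Psat1, rFGF21 library 1 was the highest. The 12 ATF4/CHOP members did not share this order. Within the rFGF21 group, library 1 was the highest in 2 of the 12 and the lowest in 3, and library 5 the highest in 2 and the lowest in 1. Library 2 was the highest in 5 and the lowest in 1, and library 3 the highest in 3 and the lowest in 7.

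Ppp1r15b, the constitutive regulator of the phosphatase that reverses eIF2alpha phosphorylation, read 71.9, 69.2, 80.9 and 70.9 CPM with rFGF21 and 76.5, 78.7, 87.1 and 99.3 CPM with PBS (-0.22 ± 0.10, edgeR adjusted p = 0.265). Ppp1r15a (GADD34), the inducible regulator of the same phosphatase, ran from 11.99 to 17.3 CPM with rFGF21 and from 14.1 to 14.99 CPM with PBS. Gdf15, a secreted stress cytokine, ran from 5.67 to 14.3 CPM with rFGF21 and from 5.36 to 14.5 CPM with PBS. Ddit4 (REDD1), an inhibitor of mTORC1, ran from 7.31 to 19.1 CPM with rFGF21 and from 8.69 to 15.1 CPM with PBS. Chac1, which degrades glutathione, was near the limit of reading, at 0.151 to 2.13 CPM with rFGF21 and 0.645 to 1.85 CPM with PBS. In these 4 genes the groups overlapped.

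**Figure D5:**
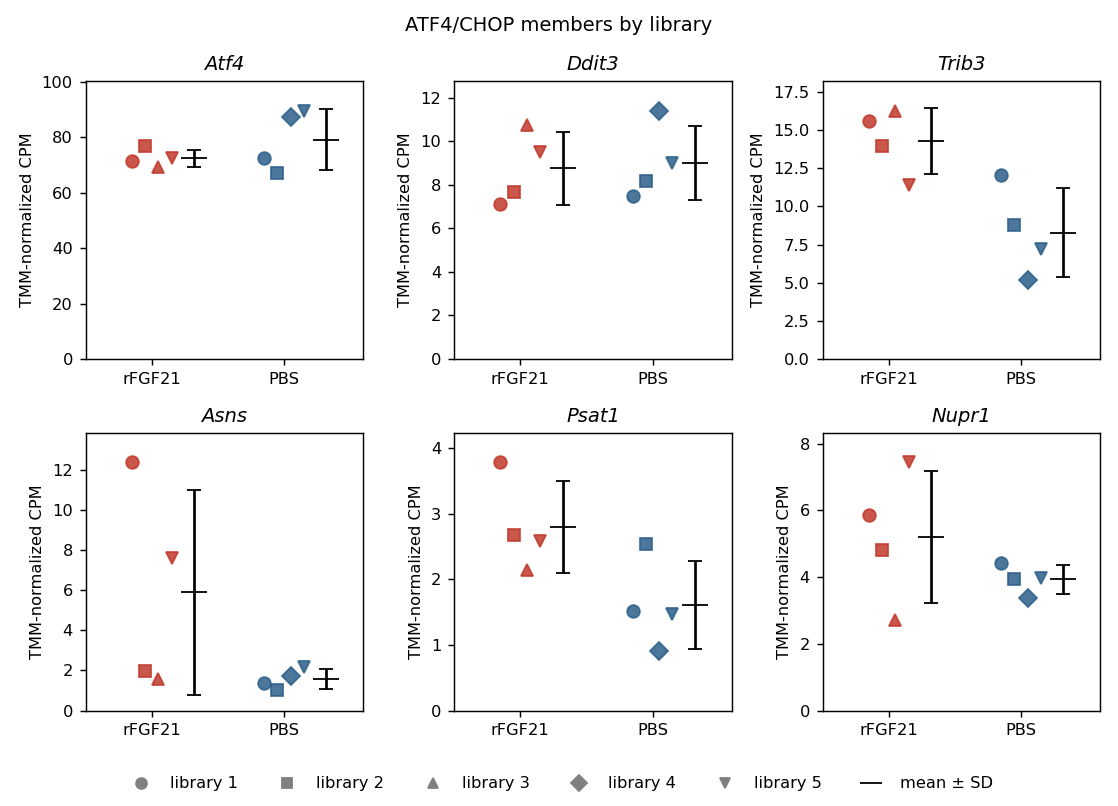
TMM-normalized CPM (y axis from 0) of 6 ATF4/CHOP members in each rFGF21 library (left) and PBS library (right), symbols giving the library number and bars the mean ± SD of 4 libraries. Atf4 and Ddit3 overlap fully, Trib3 overlaps through PBS library 1, and Asns is high only in rFGF21 libraries 1 and 5, at 12.4 and 7.59 CPM.

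Set side by side, the median log2 fold change was -0.01 over the 20 chaperone, folding and degradation members and -0.02 over the 12 ATF4/CHOP members, a difference of 0.02. Within single libraries that difference between arms, as medians relative to the PBS mean, ran from -0.30 (library 2) to 0.22 (library 3) with rFGF21 and from -0.12 to 0.10 with PBS. The range inside each group was wider than the difference between groups. Over the alternatives the difference ran from -0.14 without rFGF21 library 3 to 0.07 without rFGF21 library 5. It is given as a description, since the members share libraries.

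Promoter sequence was read for 33 of the 37 members from RefSeq's table (GRCm38.p6), as the 250 bases before each gene's start; Atf6, Hyou1, Manf and Ppp1r15b were not matched. The ER stress response element (ERSE), bound by ATF6 and XBP1 with NF-Y, was searched as CCAAT, any 9 bases and CCACG on both strands. It was found in 0.113% of all 32851 promoters, in 9 of 18 chaperone, folding and degradation members with a promoter, and in 0 of 11 ATF4/CHOP members and 0 of 4 sensors and factors. The members of that arm were listed beforehand as targets of XBP1 and ATF6. Their share of matches is therefore no independent evidence on the arm, and the matches are shown as sequence only. Each is written in the direction of the motif with its fixed letters in capitals, and Hsp90b1 has a pair.
Hspa5 (chr2:34772025-34772043): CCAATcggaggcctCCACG
Calr (chr8:84847075-84847093): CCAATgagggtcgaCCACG
Derl3 (chr10:75893242-75893260): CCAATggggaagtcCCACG
Hsp90b1 (chr10:86705638-86705656): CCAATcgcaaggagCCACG
Hsp90b1 (chr10:86705533-86705551): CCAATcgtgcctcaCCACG
Canx (chr11:50325800-50325818): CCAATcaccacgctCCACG
Pdia6 (chr12:17266491-17266509): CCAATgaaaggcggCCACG
Dnajc3 (chr14:118937827-118937845): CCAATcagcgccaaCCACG
Creld2 (chr15:88819520-88819538): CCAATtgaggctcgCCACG
Syvn1 (chr19:6046532-6046550): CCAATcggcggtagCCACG
Among the 9 genes with a match, log2 fold changes ran from -0.90 to 0.22 with a median of 0.01, and the 1 that changed was Derl3. In the 8 members of that arm with a promoter and neither ERSE nor ERSE-II, they ran from -0.16 to 0.32 with a median of -0.07. The related ERSE-II (ATTGG, any base and CCACG), which shares its last 5 letters with ERSE, was found in 0.0304% of all promoters and in Herpud1 alone among the members. The XBP1-preferred element TGACGTGG, whose reverse strand overlaps those letters, was found in 0.563% of all promoters and in 0 members.

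The ATF and C/EBP element of ATF4 targets, searched as TGATGNAA on both strands, was found in 3.45% of all promoters, and among members in Asns, Chac1, Nupr1 and Herpud1. The log2 fold changes of these 4 ran from -0.26 (Chac1) to 1.91 (Asns). The 250 bases before the start are shown for the 3 genes that changed, for Hspa5 as the typical chaperone promoter, and for Asns as the ATF4 target with the largest difference, with fixed letters of any motif above in capitals.
Xbp1 (chr11:5520391-5520640, plus strand): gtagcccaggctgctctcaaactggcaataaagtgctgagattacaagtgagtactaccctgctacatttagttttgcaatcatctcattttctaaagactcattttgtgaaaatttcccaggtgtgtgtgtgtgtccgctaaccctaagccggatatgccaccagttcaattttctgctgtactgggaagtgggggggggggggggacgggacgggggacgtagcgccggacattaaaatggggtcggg
Eif2ak3 (chr6:70844265-70844514, plus strand): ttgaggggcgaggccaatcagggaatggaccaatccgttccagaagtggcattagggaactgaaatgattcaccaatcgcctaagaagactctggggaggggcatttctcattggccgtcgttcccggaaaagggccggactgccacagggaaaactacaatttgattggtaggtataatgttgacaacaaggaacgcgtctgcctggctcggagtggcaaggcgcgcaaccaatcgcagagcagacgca
Derl3 (chr10:75893148-75893397, plus strand): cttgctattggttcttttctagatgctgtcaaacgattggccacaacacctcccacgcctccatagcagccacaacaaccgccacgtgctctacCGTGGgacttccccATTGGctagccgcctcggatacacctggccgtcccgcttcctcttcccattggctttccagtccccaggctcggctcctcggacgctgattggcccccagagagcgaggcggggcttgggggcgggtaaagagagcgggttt
Hspa5 (chr2:34771840-34772089, plus strand): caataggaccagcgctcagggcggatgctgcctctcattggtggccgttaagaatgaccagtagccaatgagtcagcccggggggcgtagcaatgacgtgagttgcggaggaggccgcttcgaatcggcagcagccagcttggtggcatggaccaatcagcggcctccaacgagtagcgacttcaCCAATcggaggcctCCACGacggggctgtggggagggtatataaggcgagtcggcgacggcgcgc
Asns (chr6:7693210-7693459, minus strand): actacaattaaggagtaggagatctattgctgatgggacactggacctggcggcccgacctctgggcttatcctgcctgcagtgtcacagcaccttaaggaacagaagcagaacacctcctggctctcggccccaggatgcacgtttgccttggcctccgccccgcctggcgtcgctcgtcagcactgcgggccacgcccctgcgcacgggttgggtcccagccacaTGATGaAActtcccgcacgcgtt
Xbp1 and Eif2ak3, the members that rose, have none of the 4 motifs in this window. Derl3, the member that fell, and Hspa5, which did not pass, each have 1 exact match to the ERSE letters searched. Copies of a motif with other letters were not searched, so these are not counts of all elements in a promoter. A match is a string of letters and not a measured binding site.

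Other genes of the same pathways were read from lists chosen with earlier results of these data known. The counts below stand beside shares over all genes tested of 2.82% called by edgeR and 8.34% by DESeq2. The share at an unadjusted p under 0.05 was 18.8%. Of 25 other ER folding genes tested 0 were called by edgeR, 5 reached an unadjusted p under 0.05 and DESeq2 called 1, Hspa13, an Hsp70-like ER protein (0.40 ± 0.10, edgeR adjusted p = 0.0641); Dnajc10, an ER disulfide reductase, followed at 0.29 ± 0.11. Of 19 other degradation genes 0 were called (1 at an unadjusted p under 0.05, 0 by DESeq2), with Aup1 at -0.29 ± 0.12 and Selenos at 0.23 ± 0.12. Of 31 genes of the translocon, signal peptidase and ER export, 1 was higher, Arfgap3, a regulator of Golgi transport, which averaged 18.9 ± 1.74 CPM with rFGF21 and 12.8 ± 0.482 CPM with PBS (0.56 ± 0.10, edgeR adjusted p = 0.016). Of 7 substrates of IRE1-dependent decay 0 were called (2 at an unadjusted p under 0.05, 0 by DESeq2), their median log2 fold change was 0.26, and Pdgfrb and Scara3 stood at 0.50 ± 0.18 and 0.49 ± 0.18. Pdgfrb is also a stellate cell marker, and all 7 stellate cell and fibroblast markers had positive log2 fold changes (median 0.22); their part in this list's median was not tested.

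Of 21 other regulators of the response, 0 were called by edgeR, 5 reached an unadjusted p under 0.05, and DESeq2 called Creb3l2 and Bhlha15. For all genes tested these shares were 2.82%, 18.8% and 8.34%. Bhlha15 (MIST1), a factor that XBP1 induces in secretory cells, was read at 30 to 85 reads in the rFGF21 libraries and 4 to 19 in the PBS libraries (0.825 ± 0.297 CPM with rFGF21 and 0.157 ± 0.128 CPM with PBS, SD, n = 4 each). Its log2 fold change was 2.40 ± 0.60 (edgeR adjusted p = 0.0608). The groups did not overlap, and these are very low levels. Of the 21 regulators, 2 did not overlap on the higher and 2 on the lower side, where 5.90% and 6.39% of all genes tested did not. Creb3l2, a relative of Creb3l3, stood at 0.46 ± 0.13 (edgeR adjusted p = 0.0954).

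Among 16 other signalling and transcription targets of ATF4 and 17 of amino acid synthesis and transport, 0 were called by edgeR in each, 3 reached an unadjusted p under 0.05 in each, and DESeq2 called 2 in each. For this paragraph too, the shares over all genes tested were 2.82% by edgeR, 18.8% at an unadjusted p under 0.05 and 8.34% by DESeq2. In the first list 12 of 16 log2 fold changes were positive (median 0.13), and in the second 11 of 17 (median 0.21). The 2 genes with the smallest p in each are given here. Atf3, a stress-induced repressor, stood at 0.60 ± 0.18 (edgeR adjusted p = 0.113). On the negative side, Cebpb, a partner of ATF4, stood at -1.02 ± 0.26 (0.0628), the neutral amino acid transporter Slc38a2 at -0.99 ± 0.24 (0.0604) and the mitochondrial serine enzyme Shmt2 at -0.46 ± 0.12 (0.0741). In Cebpb, Slc38a2 and Shmt2 no rFGF21 library reached the PBS range. In the list of 16 the groups did not overlap in 1 gene on the higher and 2 on the lower side. In the list of 17 they did not overlap in 0 on the higher and 3 on the lower side. Over all genes tested these shares were 5.90% on the higher and 6.39% on the lower side. Of 13 aminoacyl-tRNA synthetases 0 were called by edgeR, 3 reached an unadjusted p under 0.05, and DESeq2 called Sars and Wars, at 0.24 ± 0.07 and 0.37 ± 0.10. Of 6 targets of CREB3L3 0 were called by edgeR, 1 reached an unadjusted p under 0.05 and DESeq2 called 1, Cideb (-0.29 ± 0.09, edgeR adjusted p = 0.0999), while Fgf21 itself stood at -0.54 ± 0.27 (0.303).

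Other cell types were read beside these values. Shares over all genes tested were 2.82% called by edgeR, 18.8% at an unadjusted p under 0.05 and 8.34% called by DESeq2. Markers of cholangiocytes, cells that also make secreted glycoproteins, summed to 241 to 378 CPM with rFGF21 and 170 to 271 CPM with PBS, all 6 with positive log2 fold changes (median 0.62), 0 called by edgeR, 5 at an unadjusted p under 0.05 and 3 by DESeq2. Markers of stellate cells and fibroblasts summed to 398 to 571 CPM with rFGF21 and 293 to 401 CPM with PBS, all 7 positive (median 0.22, 0 by edgeR, 3 at an unadjusted p under 0.05, 2 by DESeq2). Kupffer cell and macrophage markers summed to 188 to 572 CPM with rFGF21 and 411 to 719 CPM with PBS, 6 of 7 negative (median -0.53, 0 by edgeR, 1 at an unadjusted p under 0.05, 0 by DESeq2). The 6 hepatocyte markers summed to 58552 to 72546 CPM with rFGF21 and 61003 to 79773 CPM with PBS, 5 of 6 negative (median -0.14, 0 called by edgeR, 1 at an unadjusted p under 0.05, 0 by DESeq2). Endothelial markers summed to 82.1 to 156 CPM with rFGF21 and 87.6 to 190 CPM with PBS, 5 of 6 negative (median -0.18, 0 called by edgeR, 0 at an unadjusted p under 0.05, 0 by DESeq2). Neutrophil markers summed to 13.0 to 26.2 CPM with rFGF21 and 10.8 to 18.4 CPM with PBS, all 5 tested positive (median 0.89, 0 called by edgeR, 1 at an unadjusted p under 0.05, 0 by DESeq2). The 4 pancreatic acinar markers measured summed to 5.57 to 7.28 CPM with rFGF21 and 5.52 to 9.43 CPM with PBS. The part of these cell types in the changes of Xbp1, Eif2ak3 and Derl3 was not tested.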

How the data were processed

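Mouse liver RNA was sequenced in 8 samples, 4 after rFGF21 and 4 after PBS. The deposited table gives raw counts of reads for each gene, per the file headers. The submitters' processing notes name Bowtie 0.12.2 and mm8; the counter and its strand setting were not stated. The table's coordinates were compared with GENCODE mouse release 21 (GRCm38): 30177 of 30266 identifiers occur there, 87.26% of them at identical coordinates, as do 35 of the 37 members, so positions are given as GRCm38. Of the 37 members 11 overlap another gene of the table. Columns match the labels by group but not by number; 4 count columns a group were used, those with an FPKM column beside them, and 10 columns of values were left out (2 of counts and all FPKM). Nothing in the labels says that samples are separate animals, and p-values then cover only the variation among these samples. No pair of libraries agreed within sampling noise (chi-square per degree of freedom 51.1 or more).

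Counts were tested with edgeR 4.0.16 in R 4.3.3 (filterByExpr, TMM, glmQLFit, glmQLFTest, two-sided, no covariates, Benjamini-Hochberg over 18315 genes), tested on simulated data first. SE were derived from the F statistic, and CPM are TMM-normalized. CPM per kb use merged exon lengths. Alternatives were other scalings and count filters, DESeq2 1.42.0, limma 3.58.1 (voom), and each library left out. Limma on log2 of CPM per kb or TPM, computed here from the counts, was added after seeing the data. So were the 5 pair ratios, whose exact permutation tests (smallest possible p = 0.0286) did not pass after adjustment. The 6 members with the smallest p in each role, with Atf4 and Ddit3 added after their values were seen, are given by library; of the other lists, the called genes or else the 2 with the smallest p are named. Members and lists were chosen with earlier results of these data known. Lists are described by counts and medians, with no set test.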

Additional observations from a re-analysis of the deposited data

Results flagged for a closer look

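Of 74 groups of 4 libraries (37 members in 2 groups), 6 had 1 library far from the other 3, by Dixon's 95% criterion; chance gives such a gap in about 1 in 20 groups. PBS library 4 was the far one in 3 of them. Calr read 1360 CPM there, against 958 to 976 CPM in the other PBS libraries, Xbp1 273 CPM against 229.8 to 234 CPM, and Atf5 92.1 CPM against 119 to 124 CPM. This library also had the highest mitochondrial read share, 7.96%. Ern1 read 99.5 CPM in rFGF21 library 2, against 59.8 to 65.9 CPM in the other rFGF21 libraries. Syvn1 read 49.0 CPM in rFGF21 library 1, against 54.6 to 55.6 CPM in the other 3, and Manf read 82.5 CPM in PBS library 5, against 75.6 to 76.5 CPM in the other 3.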

How the results depend on the processing

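The 25 members given by library were refitted under 18 alternatives, 449 values in all; 411 kept their direction and side of the threshold, 13 lost a call, 3 gained one and 22 changed sign, in 10 members. The count of members called was 3; it was 1 (Xbp1) on log2(TPM + 1), and 1 (without rFGF21 library 1) to 4 with a library left out. The count over all genes was 516; it was 198 with no count filter, 1527 with DESeq2, 134 and 152 with limma on log2(CPM per kb + 1) and + 0.1, 82 on log2(TPM + 1), and 131 (without rFGF21 library 1) to 486 with a library left out. The cause was not tested. TPM scaling, added after seeing the data, moved all genes together: the group difference of its scale factors was 0.172 (log2), and it moved the median of the 37 members by 0.17 and that of all genes tested by 0.161. Under it 16 of the 37 members changed sign, and 0 did once 0.172 was removed; among those given by library they were Ern1 (0.1286), Calr (0.0068), Sel1l (0.0099), Sec61b (0.0192), Herpud1 (0.0537), Atf5 (0.0235), Atf4 (0.0539) and Ddit3 (0.1218). With a library left out Ern1 ran from -0.2131 to 0.0925, Atf6 from -0.0405 to 0.0458, Herpud1 from -0.2631 to 0.0333, Edem1 from -0.0513 to 0.0511 and Ddit3 from -0.1527 to 0.0967. The difference between arms (0.02) moved by less than 0.187, the SD of single libraries, under the 18 alternatives. That SD is wider than the error of a difference between groups, so the comparison does not show that the value is stable. With a library left out the difference ran from -0.1447 to 0.0654, and its sign changed in some of those fits. Limma fits on the authors' FPKM columns were also run at first: Eif2ak3 and Derl3 lost their calls in 3 of 4 of them, all but that on genes with a mean of at least 1, and Xbp1 was called in all 4. Their values are left out because only 1 measure a group was assigned from columns matched by group, and the counts were kept; limma on CPM per kb and TPM, in which Eif2ak3 lost its call in 1 of 4 and Derl3 in 3 of 4, was put in their place after those outcomes were seen. No paired analysis was possible because the column numbers do not match the replicate numbers of the labels, so the replicate block was not run. Depth is low for Chac1, at 11 to 151 reads a library, and for Bhlha15, at 4 to 85.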
